A study of Mus musculus with 6 samples.

Results

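Myc, the AP-1 genes of the Fos and Jun families, Egr1 and Atf3 were followed in livers of mice that overexpress the transcription factor TFEB and in wild-type livers. The 10 genes were chosen by name, and every probe set that the platform annotation assigns to exactly 1 gene was kept if that gene was Myc, Fos, Fosb, Fosl1, Fosl2, Jun, Junb, Jund, Egr1 or Atf3. This gave 12 probe sets, with 2 each for Fosl1 and Jun and 1 for each of the other genes, out of 22626 probe sets that are not array controls and 12393 genes with a probe set. The study compared 3 livers from mice labelled transgenic with 3 wild-type livers (labelled CTL), all taken at postnatal day 9, with 1 Affymetrix array per mouse. The transgenic mice came from a cross of a conditional Tcfeb (now Tfeb) overexpression line with Alb-Cre mice, in which the albumin promoter directs Cre to liver cells. The wild-type animals are described by that term alone, so whether they carried either allele is unknown here. The labels call the arrays biological replicates.

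Immediate early genes are switched on within minutes of a growth factor, cytokine or stress signal, without new protein synthesis. FOS and JUN proteins pair through leucine zippers into the AP-1 transcription factor, EGR1 is a zinc finger factor, and ATF3 is a stress-induced relative that pairs with JUN. MYC binds DNA with its partner MAX and drives ribosome production and growth. In liver these genes are known for their fast rise after partial hepatectomy and injury.

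RefSeq promoter sequences were searched for 7 of the 10 genes (build GRCm38.p6), and those of Jun, Junb, Fos and Atf3 are shown because these genes were called higher in transgenic liver. Each is the stretch of 250 bases that ends just before the annotated start, read 5′ to 3′ in the direction of the gene. They lie at chr4:95052223-95052472 on the minus strand for Jun, chr8:84978749-84978998 on the minus strand for Junb, chr12:85473640-85473889 on the plus strand for Fos and chr1:191183334-191183583 on the minus strand for Atf3. Capitals mark matches on either strand to the AP-1 and CRE motifs searched and to the TATA box TATAAA.
Jun: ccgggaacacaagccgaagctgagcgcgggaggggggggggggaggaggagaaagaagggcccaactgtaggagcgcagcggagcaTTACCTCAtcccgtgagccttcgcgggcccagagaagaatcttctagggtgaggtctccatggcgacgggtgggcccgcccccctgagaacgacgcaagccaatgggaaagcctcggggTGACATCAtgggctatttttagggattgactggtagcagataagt
Junb: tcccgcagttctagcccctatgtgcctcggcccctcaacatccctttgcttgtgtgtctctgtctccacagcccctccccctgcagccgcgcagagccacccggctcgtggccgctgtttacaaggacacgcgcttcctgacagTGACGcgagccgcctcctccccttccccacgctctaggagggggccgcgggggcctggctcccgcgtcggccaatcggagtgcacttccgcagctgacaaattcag
Fos: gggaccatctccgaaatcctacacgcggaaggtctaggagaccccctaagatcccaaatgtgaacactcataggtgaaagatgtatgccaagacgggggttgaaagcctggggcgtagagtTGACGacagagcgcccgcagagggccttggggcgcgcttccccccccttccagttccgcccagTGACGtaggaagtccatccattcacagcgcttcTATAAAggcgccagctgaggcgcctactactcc
Atf3: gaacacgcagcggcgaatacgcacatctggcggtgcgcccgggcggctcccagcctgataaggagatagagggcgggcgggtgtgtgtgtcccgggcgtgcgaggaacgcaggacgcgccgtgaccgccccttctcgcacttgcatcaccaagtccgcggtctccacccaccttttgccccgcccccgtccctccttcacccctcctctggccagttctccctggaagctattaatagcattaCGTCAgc

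In the Jun window, TTACCTCA lies 164 to 157 bases and TGACATCA 45 to 38 bases before the start. Both are variants of the AP-1 and CRE motifs known from this promoter, through which JUN with an ATF partner acts on its own gene. Among 32851 RefSeq promoter windows of the same length they occur in 0.728% and 2.93%. The Fos window holds the CRE core TGACG at 129 to 125 and at 66 to 62 bases before the start, and TATAAA at 33 to 28 bases. The Junb window holds TGACG at 106 to 102 bases before the start. The Atf3 window holds the same core on the other strand, 7 to 3 bases before the start. The window of Fosb, a gene that was not called, also holds TGACG, at 60 to 56 bases before the start. TGACG occurs in 17.8% of all windows and TATAAA in 12.4%. The classical AP-1 motif TGACTCA (4.46% of windows), the full CRE TGACGTCA (1.55%, which contains TGACG), the E-box CACGTG (6.02%), to which TFEB and MYC both bind, and the CArG box of serum response factor (1.47%) had no match in any of the 7 members' windows. The windows searched were those of Fos, Fosb, Fosl2, Jun, Junb, Jund and Atf3. None was searched for Myc, Egr1 or Fosl1, so these matches and absences do not cover them. A match describes letters only, and a missing match says only that those letters are not in this window.

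Expression is given below per array as log2 on the scale deposited. A difference is the transgenic mean minus the wild-type mean, with its SE (standard error) from a limma fit over all 22626 probe sets. A probe set was called where the Benjamini-Hochberg adjusted p over all of them was under 0.05. Of the 12 probe sets of these genes, 5 were called higher and 0 lower with limma, against a background of 18.1% of all probe sets called higher and 17.3% lower. By unadjusted p, 7 passed 0.05, but the share of all probe sets that did so was not counted. The 5 belonged to Myc, Atf3, Fos, Jun and Junb. The median difference of the 12 was 0.44, against -0.04 over all probe sets, and 8 of the 12 had every transgenic array above every wild-type array, which 24.6% of all probe sets also showed (25.9% lay wholly below). None of the 12 lay wholly below. Myc and Atf3 also passed the stricter adjusted p of 0.01, which 10.6% of all probe sets passed upward and 8.73% downward. Myc, Atf3 and Fos were called and at least 2-fold higher, as were 2.18% of all probe sets, while 2.09% were at least 2-fold lower. Because the tissue is bulk liver, fewer cells of a type and less RNA per cell cannot be told apart.

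Several facts of the whole series bear on these values. Array medians ran from 6.74 to 6.76 in wild type and were 6.78 to 6.79 in transgenic liver, and Pearson's r across probe sets ran from 0.994 to 0.997 for arrays of one group and from 0.977 to 0.979 for arrays of different groups. The 14 probe sets of bacterial hybridisation controls were all lower in every transgenic array, with a median difference of -0.37. Scaling to them moved the median of all probe sets from -0.04 to 0.33, and 12963 were then called higher and 945 lower in place of 4087 and 3919, so directions here are relative to the deposited scale. Transgenic replicate 1 read Xist at 5.58, against 13.03 to 13.19 on the other arrays, a male pattern that no wild-type array had. The only Tfeb probe set stood at 6.71 ± 0.18 in wild type, against 6.50 ± 0.13 in transgenic liver (SD, n = 3 each), with an adjusted p of 0.178, and the labels do not say whether the transgene holds its target sequence. All 8 measured hepatocyte markers had a mean level of 13.77 to 13.81 per array in wild type and 13.35 to 13.39 in transgenic liver, where 5 of the 8 were called lower and 0 higher.

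**Figure D1:**
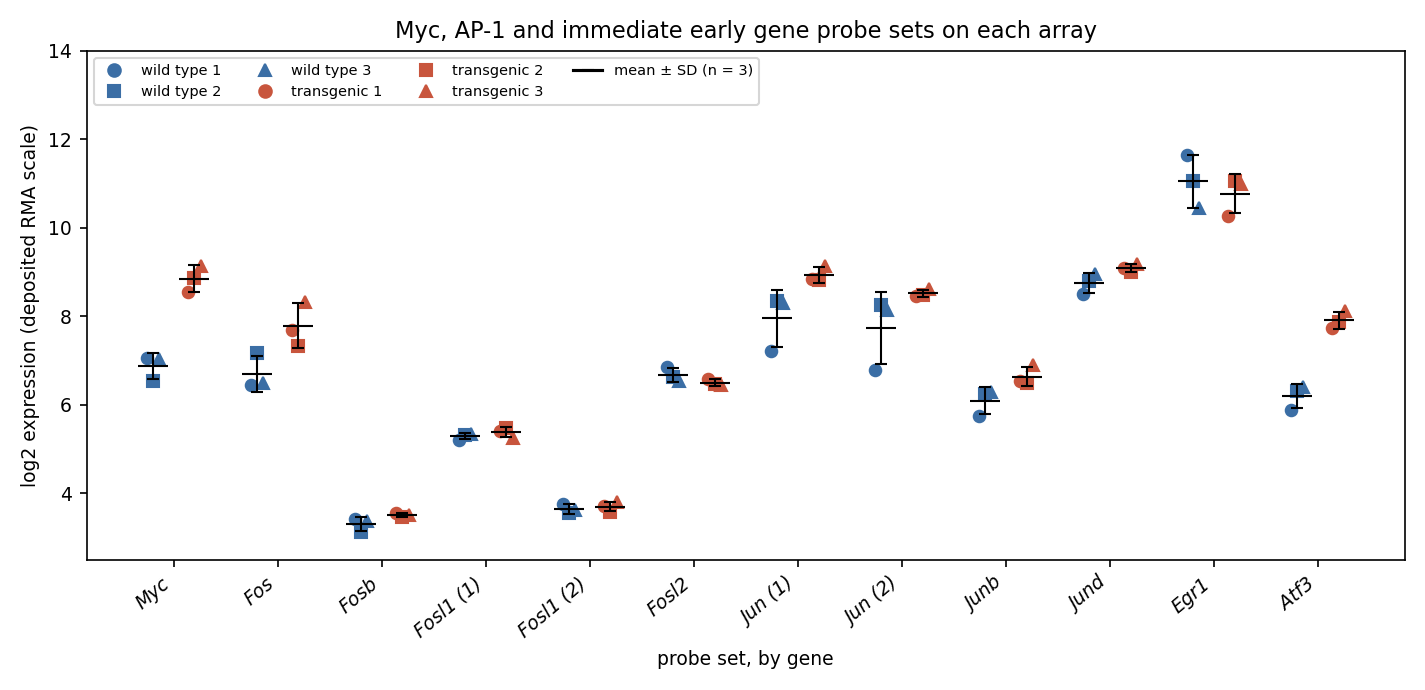
Log2 expression (vertical axis, deposited scale) of each of the 12 probe sets on the 3 wild-type (blue) and 3 transgenic (red) arrays, with marker shapes for replicate numbers and black bars for the mean ± SD (n = 3). The groups of Myc and Atf3 are separated by more than 1.3, while those of Fosl1, Fosl2 and Egr1 overlap, and wild-type replicate 1 sits far below the other wild-type arrays for both Jun probe sets.

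Myc, the growth-promoting partner of MAX, was the member with the largest difference. Its probe set read 7.07, 6.53 and 7.04 in wild type, against 8.54, 8.87 and 9.14 in transgenic liver. Every transgenic array lay above every wild-type array, with a gap of 1.47 between the nearest values. Myc was higher in transgenic liver by 1.97 (SE 0.19, adjusted p = 0.000164), which is 3.92-fold with a 95% interval of 2.91 to 5.27. Leaving out any 1 array kept the difference between 1.80 and 2.13. Ranked by absolute difference, this value stood at percentile 99.0 of all probe sets.

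Atf3, the stress-induced ATF family member, was the second to stand well clear of the spread. Wild-type livers had Atf3 at 5.89, 6.31 and 6.40, and transgenic livers had it at 7.73, 7.88 and 8.11. The groups were separated by 1.32, and wild-type replicate 1 was the lowest array. The difference was 1.71 (SE 0.15, adjusted p = 0.000123), or 3.26-fold with a 95% interval of 2.56 to 4.15. It ranged from 1.55 to 1.81 with any 1 array left out, and it lay at percentile 98.6 of absolute differences.

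Among the Fos family, Fos itself rose and its relatives were not called. Fos, the inducible partner in the AP-1 pair, stood at 6.45, 7.17 and 6.48 in wild type, against 7.70, 7.33 and 8.33 in transgenic liver. The groups did not overlap, but wild-type replicate 2 came within 0.15 of transgenic replicate 2, and transgenic replicate 3 was the highest. Fos was higher by 1.08 (SE 0.27, adjusted p = 0.0178), or 2.12-fold with a 95% interval of 1.37 to 3.29. Without wild-type replicate 3 it was no longer called (difference 0.97, adjusted p = 0.0551). Across leave-outs the difference ran from 0.81 to 1.32.

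Fosb, a FOS relative with the same zipper, read 3.42, 3.12 and 3.38 in wild type, against 3.56, 3.47 and 3.51 in transgenic liver. All 3 transgenic values were higher, by a gap of 0.05, but the difference of 0.21 (SE 0.09, adjusted p = 0.116) did not pass, and the readings lie near the bottom of the array's range. Quantile normalization repeated (difference 0.31) and cyclic loess (0.32) each gave Fosb an adjusted p of 0.0368. Scaling to the bacterial controls gave it a difference of 0.58 (adjusted p = 0.0012). Fosl1, which encodes FRA1, read 5.21 to 5.33 in wild type, against 5.25 to 5.47 in transgenic liver on one probe set, and 3.55 to 3.76 against 3.59 to 3.80 on the other. Both sets of arrays overlapped, with differences of 0.09 and 0.05 and 95% intervals of -0.10 to 0.28 and -0.15 to 0.26. Both Fosl1 probe sets were called higher with the bacterial scaling alone (0.46 and 0.43, adjusted p = 0.00451 and 0.00543). Fosl2, which encodes FRA2, read 6.86, 6.62 and 6.54 in wild type, against 6.59, 6.47 and 6.45 in transgenic liver. The Fosl2 groups overlapped and the difference was -0.17 (95% interval -0.40 to 0.05, adjusted p = 0.2). Its sign turned to 0.20 with scaling to the bacterial controls.

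All 3 Jun family genes had every transgenic array above every wild-type array, and 2 of them, Jun and Junb, were called. Jun, the central AP-1 subunit, read 7.21, 8.35 and 8.29 in wild type, against 8.83, 8.82 and 9.14 in transgenic liver on its first probe set. Its second probe set read 6.79, 8.25 and 8.15 in wild type, against 8.46, 8.49 and 8.62 in transgenic liver. On both, wild-type replicate 1 lay more than 1 unit below the other wild-type arrays, and the remaining wild-type values were close to the transgenic ones. The first probe set differed by 0.98 (SE 0.28, adjusted p = 0.0294) and the second by 0.79 (SE 0.34, adjusted p = 0.107), which was not called.

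The size of the Jun difference depended on that wild-type array. Without wild-type replicate 1, the first probe set differed by 0.61 (adjusted p = 0.00679) and the second by 0.32, then with an adjusted p of 0.0249. The second was also called with scaling to the bacterial controls (1.16, adjusted p = 0.0042). The call on the first probe set was lost without transgenic replicate 1 (adjusted p = 0.059), 2 (0.0611) or 3 (0.0959), with the mean of the 2 probe sets (0.0602) and with a trended, robust variance model (0.0855). The direction was the same in all of these.

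Junb, an AP-1 subunit that often restrains JUN, read 5.74, 6.25 and 6.29 in wild type, against 6.53, 6.49 and 6.89 in transgenic liver. The groups were apart by 0.19, and wild-type replicate 1 was again lowest. Junb differed by 0.54 (SE 0.17, adjusted p = 0.0376). Only without wild-type replicate 3 did this call hold among the 6 leave-outs (adjusted p = 0.0365). It was lost without wild-type replicate 1 (difference 0.36, adjusted p = 0.0648), wild-type replicate 2 (0.0517) or transgenic replicate 1 (0.0603), 2 (0.0542) or 3 (0.118). Jund, the most constitutive of the JUN proteins, read 8.51, 8.81 and 8.96 in wild type, against 9.08, 8.999 and 9.19 in transgenic liver. Its groups were apart by 0.04 and the difference of 0.33 (SE 0.12, adjusted p = 0.062) was not called. Jund was called without wild-type replicate 3 (0.43, adjusted p = 0.0293) and without the 40% dimmest probe sets (adjusted p = 0.0462). The same held with the trended, robust model (adjusted p = 0.0378) and with scaling to the bacterial controls (0.70, adjusted p = 0.000441).

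Egr1 was not called. This zinc finger factor, a classical target of ERK signalling, read 11.64, 11.05 and 10.45 in wild type, against 10.26, 11.06 and 10.99 in transgenic liver. The groups overlapped, with transgenic replicate 1 below and wild-type replicate 1 above all arrays of the other group, and the spread within them (SD 0.60 and 0.45) exceeded the difference of -0.28 (SE 0.31, 95% interval -0.998 to 0.44, adjusted p = 0.517). Without wild-type replicate 1 the difference was 0.022, of opposite sign. That array had the highest Egr1 and the lowest Jun, Junb, Jund and Atf3 of the wild-type group.

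**Figure D2:**
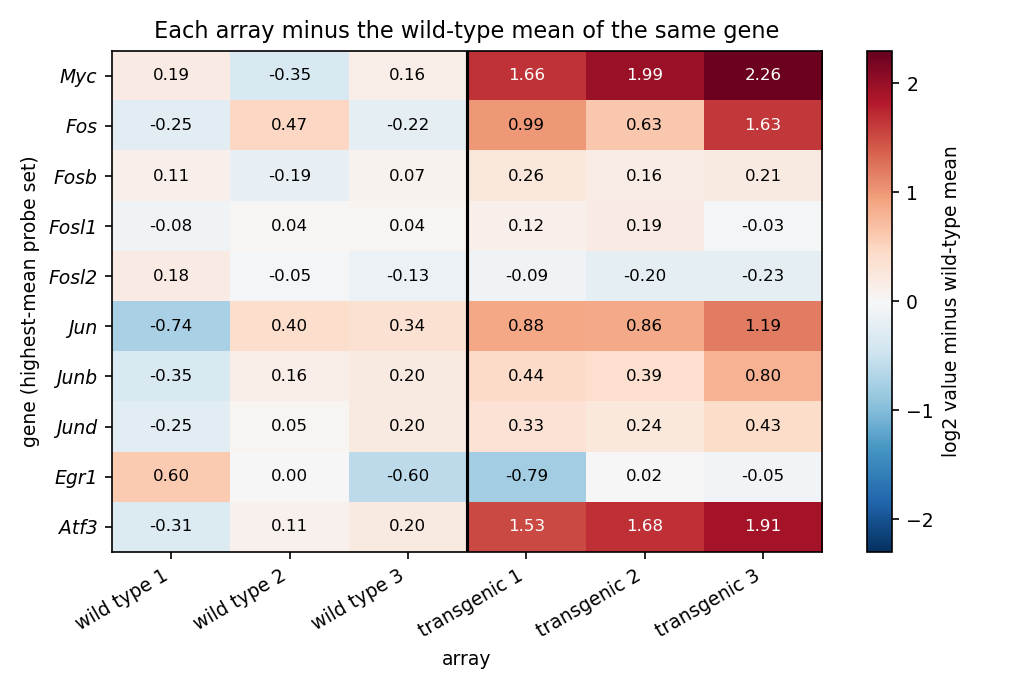
Log2 value of each gene (rows, using its brightest probe set on average) on each array (columns) minus the wild-type mean of the same gene, with red above and blue below that mean. Myc and Atf3 are at least 1.5 above it on all 3 transgenic arrays, and wild-type replicate 1 is at -0.74 for Jun and 0.60 for Egr1.

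The wild-type arrays themselves varied widely for these genes. The wild-type SD was 0.65 and 0.82 for the Jun probe sets, 0.60 for Egr1 and 0.41 for Fos, against a median of 0.11 over all probe sets, and each of these 4 lay at percentile 98.4 or above of that spread. Myc (0.30), Junb (0.31) and Atf3 (0.27) also stood at percentile 94.0 or above. The remaining Fos relatives, Fosb, Fosl1 and Fosl2, had wild-type SDs of 0.07 to 0.16. Wild-type replicate 1 was the lowest wild-type array for 7 of the 12 probe sets and the highest for the other 5, against 36.7% and 37.8% of all probe sets. The same array had the lowest wild-type level of 9 granulocyte markers (mean 8.96 against 9.86 and 10.06) and the highest of 7 cholangiocyte markers (7.50 against 6.93 and 6.61). The part of these cells in the wild-type spread was not tested.

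**Figure D3:**
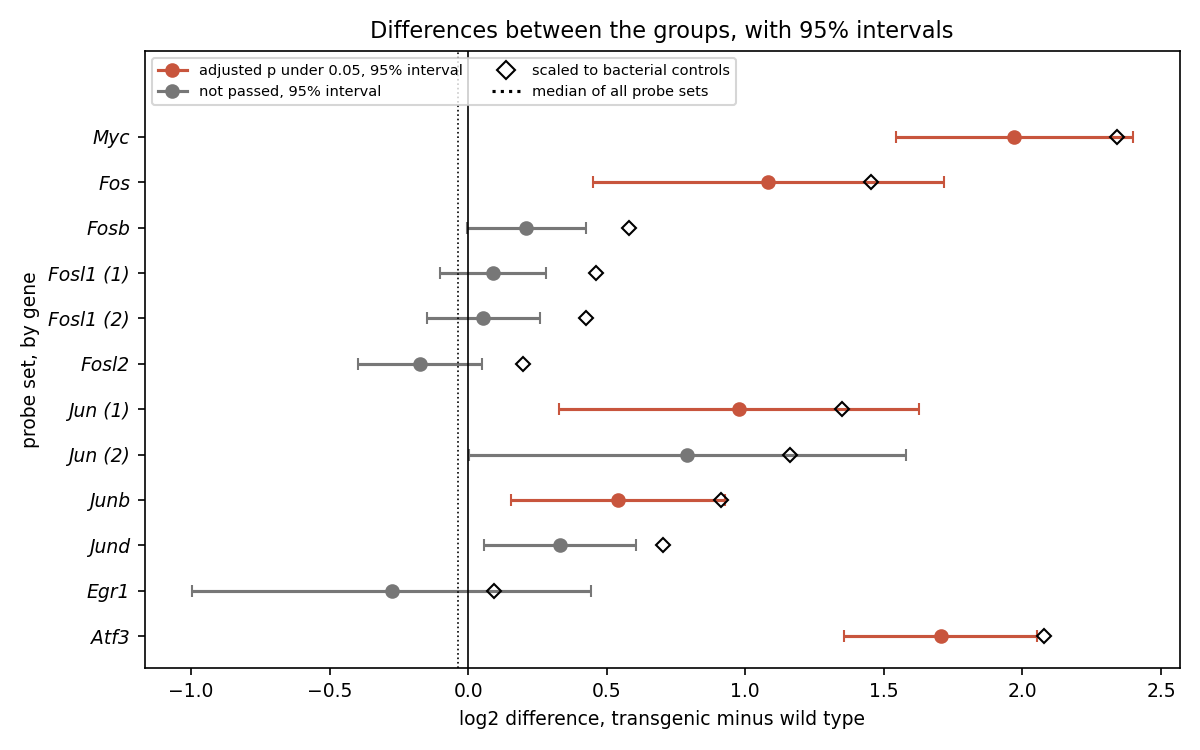
Log2 difference, transgenic minus wild type, for each probe set (circles) with its 95% interval from the limma fit, red where the adjusted p was under 0.05, and the same difference with arrays scaled to the bacterial controls (diamonds). The dotted line is the median of all probe sets at -0.04. Myc at 1.97 and Atf3 at 1.71 have intervals that start above 1.3, while the Egr1 interval runs from -0.998 to 0.44.

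Genes whose 6 array values followed Myc or Atf3 most closely were found by the root mean square difference after each gene's wild-type mean was subtracted. Since both genes differ strongly between groups, the likeness rests largely on that difference. Nearest to Myc were Acss1, a mitochondrial acetyl-CoA synthetase (root mean square 0.14), Shisa2, a membrane protein (0.16), and the small nucleolar RNA host gene Snhg11 (0.17). They were higher by 1.87, 1.97 and 2.07 in transgenic liver. Nearest to Atf3 were the phosphate transporter gene Slc20a1 (0.09), the mitochondrial carrier gene Slc25a24 (0.10) and Lgmn, a lysosomal protease (0.12), with differences of 1.78, 1.59 and 1.59.

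Genes that work with MYC were mostly not called, whereas known MYC target genes were mostly higher. From here on a gene stands for its brightest probe set on average, and of 12393 genes taken this way 19.1% were called higher and 19.5% lower, with a median of -0.04. The gene lists were chosen with earlier results of these data known, so their counts are descriptive. Of 12 MYC partners and antagonists, 1 rose, 1 fell and 10 did not pass (median -0.04). Mycl, a MYC family gene, fell by 1.40 (SE 0.10, adjusted p = 4.28e-05), from 7.55, 7.61 and 7.64 in wild type to 5.99, 6.29 and 6.32. Mxd4, a MAX-binding repressor, rose by 0.41 (SE 0.08), on 1 of its 4 probe sets. The number that fell was 2 without wild-type replicate 1 and 3 with median centring. Max itself read a difference of 0.09 that did not pass. Mycl was called lower on 2 of its 3 probe sets. Among the genes whose brightest probe set did not pass, dimmer ones were called lower for Mycn (2 of 3), Mnt (1 of 2) and Mxd3 (1 of 3).

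Among the 32 MYC targets 20 rose and 2 fell, 10 did not pass, and the median difference was 0.34. Odc1, the first enzyme of polyamine synthesis, rose by 0.86 (SE 0.14, adjusted p = 0.00219), from 9.64, 10.04 and 10.04 to 10.98, 10.69 and 10.63. Nolc1, a nucleolar phosphoprotein, rose by 0.75 (SE 0.10), on 2 of its 3 probe sets. The serine hydroxymethyltransferase genes Shmt1 and Shmt2, of one-carbon metabolism, fell by 0.55 and fell by 0.52, on 4 of 4 and 3 of 4 probe sets. Chosen for mention once their values were known, the nucleolar genes Nop2 (0.71), Nop56 (0.66), Ddx21 (0.58), Gnl3 (0.52) and Fbl (0.43) and the cell cycle kinase gene Cdk4 (0.71) were among those that rose. None of the 20 reached 2-fold. The number that rose was 16 to 20 with any 1 array left out. With scaling to the bacterial controls it was 27, when 57.3% of all probe sets were called higher. Without the 40% dimmest probe sets it was 20 of 31, when 29.8% of all probe sets were called higher and their median was 0.06.

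Genes that set the stability and activity of MYC protein rose in 6 of 12 cases, fell in 0 and did not pass in 6 (median 0.29). Huwe1, a ubiquitin ligase, rose by 0.50 (SE 0.10), Trrap, a cofactor MYC recruits, by 0.49, the kinase gene Pim3 by 0.46 and Skp2, part of a ubiquitin ligase, by 0.34. Huwe1 was called on 2 of its 3 probe sets, Pim3 on 1 of 3 and Skp2 on 2 of 6. The count of genes that rose was 3 without wild-type replicate 2 or transgenic replicate 3, and 1 gene fell without transgenic replicate 1. Fbxw7, the ligase subunit that marks MYC for breakdown, differed by 0.08 and did not pass.

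AP-1 partners of the ATF, MAF, BATF and CEBP families had 5 of 18 genes higher (27.8%), 4 lower (22.2%) and 9 not passed (median -0.08), shares near those of all genes (19.1% and 19.5%). Maff, a small MAF protein, rose by 0.99 (SE 0.12, adjusted p = 0.000508), from 6.72, 7.16 and 7.07 to 8.06, 7.93 and 7.93. Ddit3, which encodes the stress factor CHOP, rose by 0.67 (SE 0.11). Atf5 fell by 0.63 (SE 0.07) and Maf fell by 0.37. The number higher was 3 without transgenic replicate 2 or 3 and with median centring. Of 18 upstream kinases and serum response genes, 3 rose, 3 fell and 12 did not pass (median 0.0002), again near the shares of all genes. Map3k1, a kinase above JNK, rose by 1.05 (SE 0.09, adjusted p = 0.000122), from 7.17, 7.16 and 7.22 to 8.21, 8.08 and 8.41. Rps6ka3, which encodes RSK2, rose by 0.46, on 2 of its 3 probe sets. Nab2 and Nab1, corepressors of EGR proteins, fell by 0.49 and fell by 0.41. Srf, which acts at many immediate early promoters, differed by 0.05 and did not pass.

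**Figure D4:**
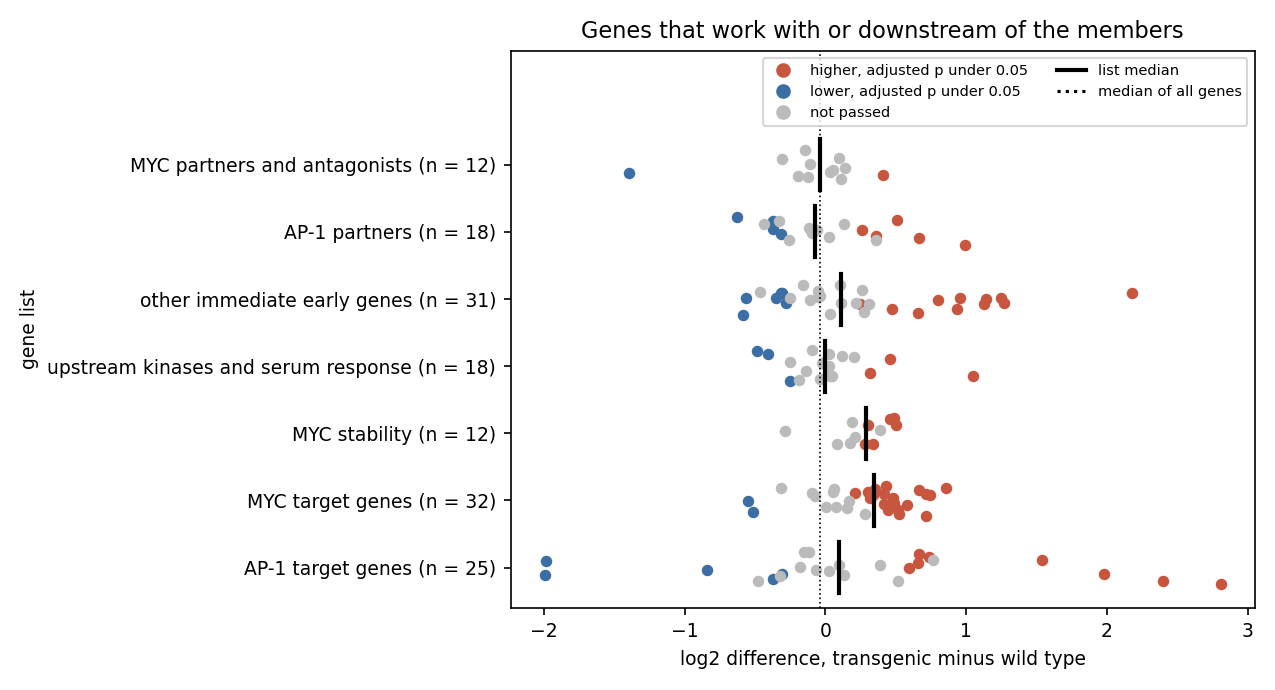
Log2 difference, transgenic minus wild type (horizontal axis), of each measured gene in 7 lists, 1 point per gene, red for called higher, blue for called lower and grey for not passed, with a black bar at the list median and a dotted line at the median of all genes (-0.04). Of 32 MYC target genes 20 are red, while AP-1 targets spread from -2.00 to 2.81.

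Of 31 other immediate early genes 11 rose (35.5%), 6 fell (19.4%) and 14 did not pass (median 0.11). Ccn1, a secreted matrix protein also known as a YAP target, rose by 2.18 (SE 0.15, adjusted p = 3.97e-05), from 6.76, 6.35 and 6.29 to 8.61, 8.44 and 8.88. Plk2, a polo-like kinase, rose by 1.27 (SE 0.09). The Krüppel-like factor genes Klf2 and Klf4 fell by 0.59 and fell by 0.56. Further calls, chosen for mention once their values were known, were the stress genes Ier3 (1.25) and Gadd45b (1.14), Ccn2 (1.13), the EGR family gene Egr2 (0.95) and Klf6 (0.93). Egr2 readings were low, at percentile 20.9 of mean level (4.07, 3.88 and 4.17 in wild type against 4.58, 4.89 and 5.51). Several of the fastest responders did not pass, among them Ier2 (-0.11), Dusp1 (-0.04), Btg2 (0.03), Zfp36 (0.11) and Nr4a1 (0.22). As for Jun, wild-type replicate 1 was low for Gadd45b (7.33 against 8.43 and 8.12) and Ier3 (6.70 against 7.52 and 7.40). The same array was low for Btg2 (9.36 against 10.27 and 10.08) and Dusp1 (8.67 against 9.33 and 9.07). For Dusp1, transgenic replicate 2 was lower still (8.53 against 9.17 and 9.26), so these small differences depend on single arrays. For Ier2, wild-type replicate 1 was the highest wild-type array (9.58 against 9.46 and 9.31). The number higher was 9 to 11 with any 1 array left out.

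Of 25 AP-1 targets 8 rose (32%), 5 fell (20%) and 12 did not pass (median 0.10). Sprr1a, an epithelial envelope protein, rose by 2.81 (SE 0.31, adjusted p = 0.000361), from 5.05, 4.999 and 4.55 to 8.47, 7.29 and 7.28. The monocyte chemokine gene Ccl2 rose by 2.40 (SE 0.19), from 5.77, 5.73 and 5.82 to 8.44, 7.66 and 8.42. The metalloproteinase inhibitor gene Timp1, chosen once its value was known, rose by 1.98. The calprotectin genes S100a9 and S100a8 fell by 2.00 and fell by 1.98, and both are also among the granulocyte markers, of which 8 of 9 fell (mean level 8.96 to 10.06 in wild type and 7.31 to 8.11 in transgenic liver).

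Markers of other cells differed between the groups beside these genes. Of 7 cholangiocyte markers, 6 rose and 0 fell, with a mean level of 6.61 to 7.50 in wild type and 8.97 to 9.25 in transgenic liver. Chosen once their values were known, Epcam rose by 1.94 and Cldn4 by 4.61. Krt19 differed by -0.27 and did not pass, although 1 of the 7 was called lower without wild-type replicate 3. Lymphoid markers fell for 8 of 9 (6.19 to 6.59 in wild type against 5.23 to 5.57) and macrophage markers fell for 3 of 9 (6 without wild-type replicate 1, and 1 without wild-type replicate 2, wild-type replicate 3 or transgenic replicate 2), beside the 5 of 8 hepatocyte markers given above. Erythroid markers rose for 3 of 8, stellate markers rose for 2 and fell for 3 of 10, and endothelial markers fell for 4 of 10. The 1 endothelial marker that rose was not called without wild-type replicate 3 or transgenic replicate 1 or 2, and 2 rose without wild-type replicate 1. With scaling to the bacterial controls, called lower were 1 hepatocyte, 0 macrophage, 0 endothelial, 2 stellate, 5 lymphoid and 8 granulocyte markers. Called higher were then 6 cholangiocyte, 7 erythroid, 6 stellate, 5 endothelial, 2 hepatocyte and 2 macrophage markers. The part of these shifts in the differences of Myc, Atf3, Fos, Jun and Junb was not tested.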

How the data were processed

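Liver RNA from 6 mice was labelled as biotinylated cRNA and read on Affymetrix arrays. The deposited values are log2 expression per probe set, made by the authors with affy and RMA per the submitters' processing notes. Their versions, and any later filter, are not stated. The table has 22690 probe sets, 64 of them array controls, with no detection calls. Precision is limited by the number of arrays.

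Group membership came from sample titles. The platform annotation gives 1 gene to 20380 probe sets, several to 691 and none to 1555, and 20351 symbols matched RefSeq of GRCm38.p6. The groups were compared over the other 22626 probe sets by limma 3.58.1 (R 4.3.3, lmFit then eBayes, without covariates), and p-values were adjusted by Benjamini-Hochberg. With 3 arrays a group the smallest exact permutation p is 0.1, and no such test was run. The members, gene lists and alternatives were chosen with earlier results of these data known. Named genes were the members, up to 4 genes per list past the threshold with the largest difference (up to 2 in each direction first), and the 3 genes most like each of the 2 members that differed most. Genes named outside this rule are marked or given as values that did not pass. No array's column was left unmapped. On simulated data with 200 of 22626 probe sets changed, differences of 0.5, 1 and 2 were recovered for 53.7%, 89.6% and 100% of them, with 2 false calls. The simulated noise was independent across arrays and probe sets, and the changed probe sets were drawn at random. These rates therefore do not describe probe sets with a wide spread, such as those of Jun, Fos and Egr1. Tables and figures used Python 3.11.15, pandas 2.3.3 and matplotlib 3.10.9.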

Additional observations from a re-analysis of the deposited data

How the results depend on the processing

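The 19 alternatives covered normalization, probe set choice, variance model, threshold and each array left out. The count of 5 member probe sets called higher was 3 to 5 with 1 array left out, and it was 3 without transgenic replicate 1, 2 or 3. It was 10 with scaling to the bacterial controls, 2 at an adjusted p of 0.01 and 3 when a 2-fold difference was also required. The other alternatives gave 4 to 6, and the count called lower was 0 in all 19. Over all probe sets, 13.3% to 17.1% were called higher with 1 array left out and 57.3% with the bacterial scaling. The share was 29.8% without the 40% dimmest probe sets, where 6 of 9 member probe sets were called. It was 15.3% to 19.9% in the remaining fits, 10.6% at an adjusted p of 0.01 and 2.18% with the 2-fold requirement. Called lower were 4.18% to 21.5% across the alternative fits. Signs turned for Egr1 (0.022 without wild-type replicate 1, over a leave-out range of -0.58 to 0.022, and 0.095 with the bacterial scaling) and for Fosl2 (0.20 with the bacterial scaling), and neither was called. The bacterial scaling shifts every probe set by the same amount. The cause of the other changes was not tested. Myc and Atf3 were called under every alternative fit that held their probe set, at differences of 1.80 to 2.34 and 1.55 to 2.08. The single Myc probe set has the suffix a and was absent when such probe sets were left out. With the replicate number as a block, 5 member probe sets were called higher and 0 lower. Over all probe sets the same-numbered arrays did not deviate together (correlations -0.10, -0.02 and 0.05). Such values cannot exclude a pairing that acts on some genes, and the labels name no pairing. The block changed no member's call.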
